A study of Mus musculus with 180 samples.

Results

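The 6 samples described here are the vehicle controls of a kinase inhibitor screen in mouse bone marrow-derived macrophages (BMDMs), out of 180 RNA-seq samples in all. They were chosen by their labels alone, and their expression profile was read in 3 ways: the genes with the highest levels, the genes that were absent, and the genes that differed between the replicate numbers. Each sample held wild type BMDMs that spent 1 h in DMSO, the solvent of the inhibitors, before LPS was added at 10 ng/ml, and RNA was taken 2 h later. The labels divide them into DMSO set 1 and DMSO set 2, each with replicates 1, 2 and 3, and the remaining samples are replicates 1 to 3 of 58 inhibitors under the same LPS stimulation. The study's methods name male C57/BL6 mice aged 6 to 8 weeks as the source of the marrow and 3 independent biological replicates, but the labels do not tie a replicate number to an animal. All 6 samples were stimulated, so no level given below can be set against that of unstimulated cells.

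BMDMs are macrophages grown in culture from marrow progenitors with a growth factor that acts on the receptor Csf1r. LPS, which coats Gram-negative bacteria, is recognised by Tlr4 together with Ly96 and Cd14. One arm of the response runs through Myd88 to NF-kB and AP-1 and switches on chemokines, cytokines and their own inhibitors, and the other runs through Ticam1 to Irf3 and to interferon beta, which then acts back on the cells and induces the interferon-stimulated genes. At 2 h both arms are usually active.

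The normalised read counts of a sample summed to between 9481416 and 11094387, and between 17133 and 18042 of the 45070 genes in the table were above 0. The deposited values are scaled and rounded, and the factor could be estimated from the spacing of low values in all samples but set 2 replicate 2, which gave between 11400000 and 13600000 reads on genes. Across the 12505 genes with a mean of at least 10, Spearman's rho between samples ran from 0.946, for replicates 1 and 2 of set 2, to 0.989, for replicate 1 of both sets. These are the samples that stood farthest apart and closest together. Many results below are given with each set's own values, while some list counts and medians rest on both sets together. Unless stated otherwise, levels of different genes are compared per kb of cDNA, that is, as the normalised read count divided by the length of the cDNA in kb.

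The 6 samples carried the marks of macrophages. The receptor of the culture's growth factor, Csf1r, had normalised read counts of 25183, 25276 and 24416 in replicates 1 to 3 of set 1 and of 24993, 24662 and 25418 in those of set 2, so that it hardly moved. The surface marker Adgre1 ran from 5747 to 10541 and the scavenger receptor Cd68 from 3124 to 11311. The whole list of 16 macrophage identity genes was above 0 in every sample and passed the filter of a mean of 10. Its summed level per kb lay between 97084.1 and 234004, which was 1.66 to 3.4% of the summed level of all genes. Among its transcription factors Cebpa was low, with 5.69 per kb against 1649.3 for Spi1.

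Many markers of other cell types were at or near 0. Of the T cell receptor subunits Cd3e, Cd3d and Cd3g, none was above 1 in any sample, while the subunit Cd247 ran from 20 to 31 and the kinase Lck from 22 to 99. Of 10 T cell markers 5 passed the filter. The B cell genes Cd79a and Pax5 were at 0 in all 6. The haemoglobin genes Hbb-bs, Hba-a1 and Hba-a2, and the keratins Krt8, Krt18, Krt5, Krt14 and Krt19, were at 0 as well. For these lists the summed level per kb ran from 129.4 to 424.8 for 10 T cell markers, from 181.9 to 460.5 for 10 B cell markers, from 1.6 to 8.37 for 9 erythroid markers and from 0 to 0.711 for 7 epithelial markers. Among megakaryocyte markers Pf4, a chemokine stored in platelets, had 7711.2 per kb, while Itga2b, Gp1ba and Gp9 had no more than 1 and Gp6 was at 0. Among the T and B cell markers Cd28, a costimulatory receptor, Il7r, the receptor of interleukin 7, and Blnk, an adaptor of B cell receptor signalling, had ranges of 156 to 690, 243 to 676 and 322 to 789. Of 10 neutrophil markers 8 passed the filter, and their list summed to between 514.5 and 1684.8 per kb. The granule genes S100a8, S100a9 and Ngp ran from 100 to 307, from 53 to 204 and from 74 to 370 normalised reads and the chemokine receptor Cxcr2 from 133 to 284, while the surface marker Ly6g was at 0 or 1. Some markers of the remaining lists were detected too. The endothelial genes Kdr and Vwf ran from 46 to 356 and from 31 to 109 normalised reads. The eosinophil marker Ccr3 ran from 102 to 320, the dendritic cell marker Xcr1 from 44 to 72 and the fibroblast gene Col1a1 from 11 to 98. The filter was passed by 2 of 7 endothelial, 1 of 4 eosinophil, 3 of 8 dendritic cell and 4 of 10 fibroblast markers. The summed levels of the macrophage, T cell, B cell and neutrophil lists were all highest in set 2 replicate 1 and lowest in set 2 replicate 2. In bulk RNA, fewer cells of a type and less RNA per cell cannot be told apart.

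**Figure D1:**
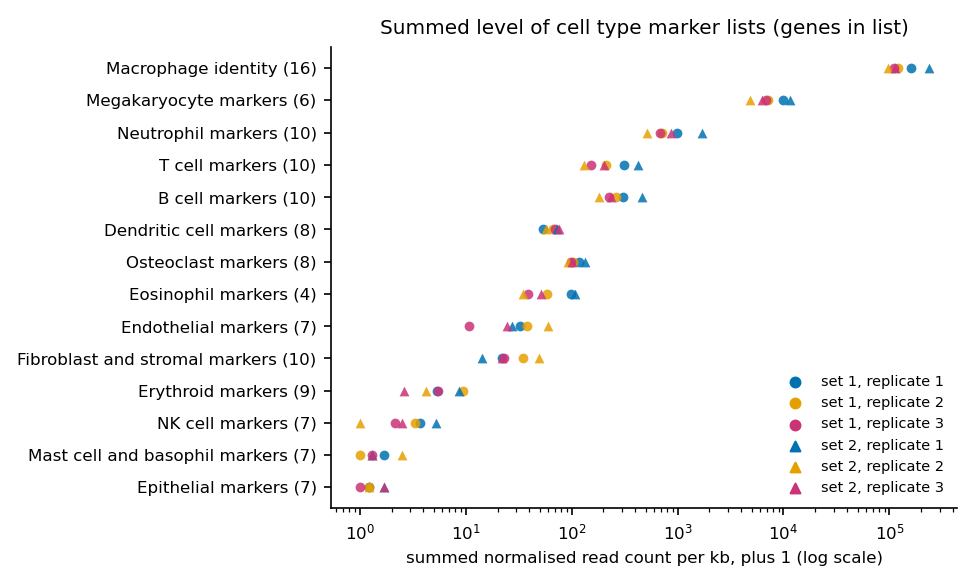
Summed normalised read count per kb of cDNA, plus 1, on a log axis, for each cell type marker list (number of genes in brackets); circles are DMSO set 1, triangles are DMSO set 2, and colours are replicate numbers. The macrophage list lies between 97084.1 and 234004 in the 6 samples, and the epithelial list at no more than 0.711.

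The genes with the highest levels were few and carried much of the signal. The 10 highest genes of a sample made up 14.7 to 17.7% of its summed level per kb, the 30 highest 23.9 to 27% and the 1000 highest 73.8 to 77.3%. By the mean of the 6 samples the first 30 comprised 25 protein-coding genes, 4 pseudogenes and 1 ribosomal RNA of the mitochondrion. Over these 30 genes the range of the 6 samples had a median of 0.77 on the log2(value + 1) scale, beside 0.88 over all 12505 genes tested.

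**Figure D2:**
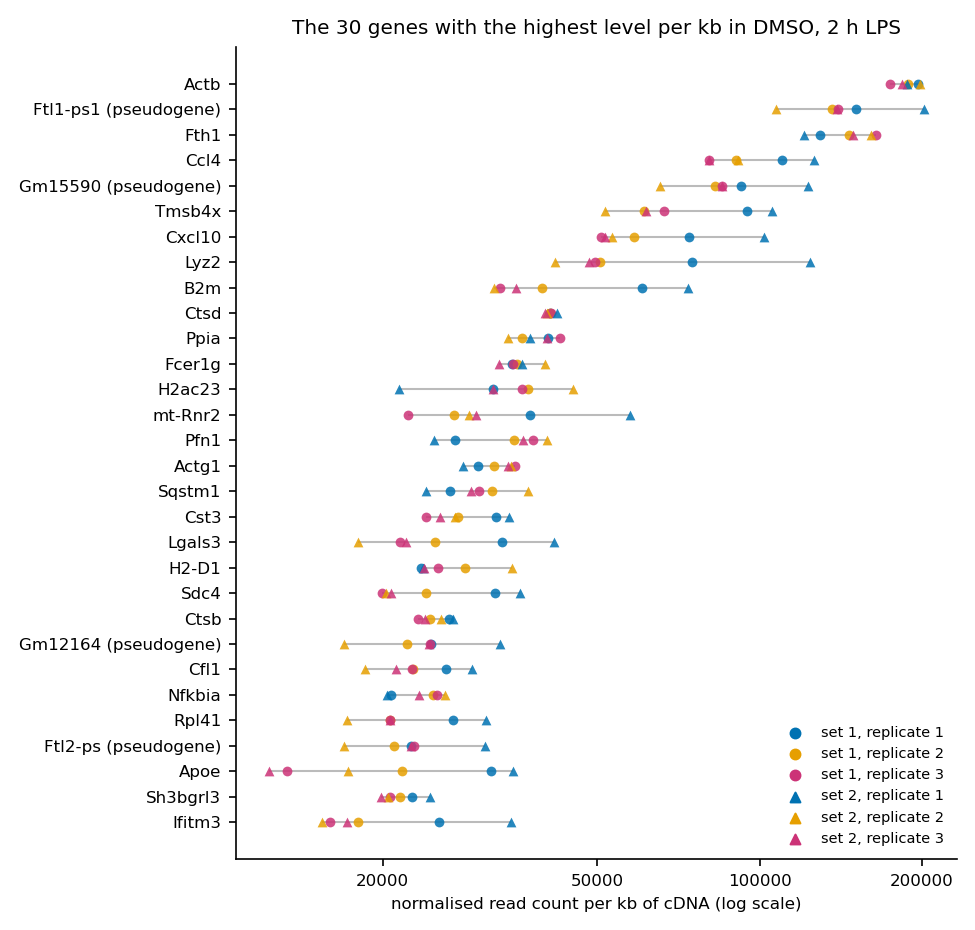
Normalised read count per kb of cDNA, on a log axis, of the 30 genes with the highest mean over the 6 DMSO samples, one point per sample (circles set 1, triangles set 2, colours replicate numbers) and a line from the lowest to the highest. Actb at the top spans 174219.3 to 198537.5, and Ctsd has the narrowest span of the 30, with its highest sample 1.05 times its lowest.

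Actb, the main cytoplasmic actin, led the list. It had 188087.7 ± 8842.9 per kb (mean ± SD, n = 6) and alone made up 3.07% of the summed level of all genes. Tmsb4x, which holds actin monomers, had 73472.6 ± 21379.5 per kb, Pfn1, which feeds monomers to growing filaments, 33678.2 ± 6194.1, the second cytoplasmic actin Actg1 32367.5 ± 2795.2 and Cfl1, which severs filaments, 23459.7 ± 3808.9. The differences in level between Actb and these 4 genes exceeded the spread over the samples, since the lowest Actb value was above the highest of any of them. Tmsb4x was less even than Actb, from 51674.6 to 105334.3 per kb, with both replicate 1 samples on top.

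Ferritin, the cell's iron store, came directly after Actb, and its light chain is listed under several copies. Fth1, the heavy chain, had 145104.5 ± 17201.4 per kb (n = 6) and ran from 120730 to 164264.7. For the light chain the highest entry was not the gene Ftl1 but its processed copy Ftl1-ps1, at 145853.8 ± 31029.5 per kb, with 3 more copies, Gm15590, Gm12164 and Ftl2-ps, at 88841.6, 24258.5 and 22818.8 per kb. Ftl1 itself (mm10 chr7:45457944-45459886, minus strand) stood at 8774.9 per kb and received 2.81 to 3.35% of the reads of the 6 light chain entries in a sample. Ftl1-ps1 received 14.2 to 17.2 times the reads of Ftl1. The copies are shown here because reads of 51 bases can match several of them. The first 90 coding bases of the light chain, from the GENCODE transcripts of GRCm38, are given in lower case with bases that differ from Ftl1 in capitals.
Ftl1: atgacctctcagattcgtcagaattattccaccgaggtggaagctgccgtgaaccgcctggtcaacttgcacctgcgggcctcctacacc
Ftl1-ps1: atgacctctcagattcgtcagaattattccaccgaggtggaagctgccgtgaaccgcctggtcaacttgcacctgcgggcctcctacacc
Gm12164: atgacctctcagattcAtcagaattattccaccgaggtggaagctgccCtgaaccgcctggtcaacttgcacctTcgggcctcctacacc
Ftl1-ps2: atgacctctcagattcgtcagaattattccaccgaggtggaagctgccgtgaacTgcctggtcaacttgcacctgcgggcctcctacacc
Ftl1-ps1 had 0 differences from Ftl1 in this stretch, as had Gm15590 and Ftl2-ps, while Gm12164 had G17A, G49C and G75T and Ftl1-ps2 had C55T, counted from 1 at the A of the start codon. Of the 502 windows of 51 bases, the read length in the study's methods, although the labels name another sequencer and the methods give both paired and single ends, in the 552 coding bases of Ftl1, 417 occurred unchanged in Ftl1-ps1, 315 in Gm15590, 271 in Ftl2-ps, 119 in Ftl1-ps2 and 77 in Gm12164, and 85 occurred in none of the copies. The light chain total of the 6 entries was 206343 to 387425 normalised reads, and its division between gene and copies is uncertain, since how reads were assigned was not tested. The heavy chain stood at 0.471 to 1.18 times that total, lowest in set 2 replicate 1 and highest in set 2 replicate 2.

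Some genes that most cells use were low in the table. Gapdh, an enzyme of glycolysis, had 108 to 208 normalised reads, and the elongation factor Eef1a1 552 to 939. Among the 81 cytosolic ribosomal protein genes, Rpl10, Rpl13, Rpl17, Rpl7a and Rpl9 had no sample above 27, while Rpl41 reached 22876.8 ± 5162.2 per kb and Rps29 16292.3. The pseudogenes Rpl10-ps6, Rpl10-ps1 and Rpl13-ps3 stood at 11914.5, 7374.2 and 8385.2 per kb. Pseudogenes as a class took 8.51 to 10.8% of the normalised reads and protein-coding genes 86.5 to 89.7%. Whether reads of these genes were counted on copies was not tested, so their values are uncertain.

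Of the lysosomal genes, Ctsd, an aspartic protease, was the most even of the leading genes, at 40887.8 ± 695 per kb (n = 6), and the cysteine protease Ctsb had 25139.4 ± 1499.5. Cst3, an inhibitor of cysteine proteases, had 28567.6 ± 4012.1. All 24 genes of the lysosome list passed the filter, and their summed level held between 2.64 and 2.77% of that of all genes. Lyz2, the lysozyme of myeloid cells, was in contrast the most uneven of the 30, with normalised read counts of 79138, 53425 and 52228 in replicates 1 to 3 of set 1 and of 131174, 44126 and 50926 in those of set 2. Replicate 1 was the highest in both sets, 2.97-fold above the lowest sample at the extreme.

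Genes of antigen presentation and of the surface followed. B2m, the common light chain of MHC class I, had 45683 ± 17243.1 per kb and H2-D1, a heavy chain, 26596.2 ± 4367.4. Fcer1g, the signalling chain of Fc receptors, had 35716.3 ± 2405, the syndecan Sdc4 25570.7 ± 6916 and Ifitm3, which restricts virus entry, 21142.7 ± 7557.7. All 15 genes of the MHC class I list passed the filter. The class II genes were lower, at 2965.1 to 7502.4 per kb for the sum of 11 genes against 79660.6 to 122372.8 for class I, and these ranges did not overlap. Among the remaining leaders were Ppia, a peptidyl-prolyl isomerase, at 38573.7 ± 3136.3 per kb, the autophagy receptor Sqstm1 at 29870.6 ± 4556.5, the lectin Lgals3 at 26925.9 ± 8848.6, the lipid carrier Apoe at 21871.2 ± 9523.7, and Sh3bgrl3 at 21595.6 ± 1695.8. The histone H2ac23 and the mitochondrial rRNA mt-Rnr2 stood at 33999.1 and 33875.7 per kb in these libraries, which were primed on poly(A).

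Before division by length the 10 largest normalised read counts belonged to Actb, Fth1, Ftl1-ps1, Ctsb, Gm15590, Ctsd, Cxcl10, Lyz2, Ccl4 and Actg1. Of the 30 genes named per kb, 21 were also among the first 30 without the division. Gm38733, a non-coding gene on the plus strand (mm10 chr5:142895304-142903515) that overlaps the end of Actb on the other strand, had a mean of 58413.2 normalised reads. The library protocol does not mark the strand, so reads of the overlap cannot be assigned to one of the 2 genes.

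Of the chemokines, Ccl4 and Cxcl10 were among the 30 leading genes. Ccl4, which attracts monocytes and T cells, had normalised read counts of 72597, 59587 and 53204 in replicates 1 to 3 of set 1 and of 83174, 60239 and 53159 in those of set 2, or 96454.5 ± 18036.8 per kb. Cxcl10, a ligand of Cxcr3 that interferon and NF-kB induce, had 81575, 64411, 56043, 112277, 58561 and 56861 in the same order, or 65051.2 ± 20044 per kb. In both genes replicate 1 was the highest of its set. All 12 CC chemokines passed the filter, from Ccl17 at 34 per kb through Ccl2 at 9544.3 and Ccl5 at 16531.6 to Ccl4. The CXC chemokines were split, with Cxcl16, Cxcl2, Cxcl1 and Cxcl11 at 2915.1, 1530, 711.2 and 683.2 per kb, Cxcl5 at no more than 3 normalised reads in any sample, and Cxcl13 and Cxcl15 at 0 throughout.

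Among cytokines, Tnf stood at 6668 to 8932 normalised reads and 4688.9 per kb, Il27, a subunit of a cytokine of the interleukin 12 family, at 3452.4 per kb, Il1b at 3002.7 and its natural antagonist Il1rn at 2088.9. Il10, which restrains inflammation, had 855.3 per kb, Il12b, the p40 subunit, 648.6, and Il6 467.3. The partners of Il12b were nearly absent, with Il12a at 1 to 3 normalised reads and Il23a at 0 to 2. Of 31 cytokine genes listed, 16 passed the filter and 8 were at 0 in all samples, namely Il3, Il4, Il5, Il9, Il11, Il17a, Il21 and Il22. The colony-stimulating factors divided in the same way, Csf1 at 280.5 per kb and Csf2 and Csf3 at 0.807 and 2.57.

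Nfkbia led the NF-kB list. The protein is an inhibitor that NF-kB itself induces, and the transcript had 23452.9 ± 2379.4 per kb (n = 6), ahead of the related Nfkbiz at 2912.6, Nfkbib at 2359.8 and Nfkbie at 1872.2. The subunits Nfkb2, Relb, Rel, Rela and Nfkb1 stood at 1186.6, 1147.1, 585.3, 345.4 and 169.1 per kb. Every Nfkbia value per kb was above every value of these 5. Of the 23 immediate-early genes, which respond within minutes of a stimulus, Dusp1, a phosphatase of MAP kinases, had 9499.6 per kb, Junb 9414.7, Zfp36, which destabilises cytokine mRNAs, 3435.5 and Atf3 3416.4. The classical members Fos and Egr1 were far lower, at 79.3 and 27.7 per kb.

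The receptors and adaptors of the pathway covered a wide range of levels. Tlr4 had 310 to 1067 normalised reads (84.8 per kb) and its partner Ly96 32 to 118 (115.3 per kb), against 13421.5 per kb for Cd14 and 4970.2 for Tlr2, the receptor of bacterial lipopeptides. The adaptor Myd88 had 2012.4 per kb and Ticam1 138. Of 26 genes of the Tlr4 list, 25 passed the filter, the exception being the serum protein Lbp. Enzymes of activated macrophages included Acod1, which makes itaconate, at 9564.1 per kb, Sod2 at 2959.1, Ptgs2, which starts prostaglandin synthesis, at 636.5 and Nos2, the inducible nitric oxide synthase, at 208.1, while Ido1, which degrades tryptophan, had no sample above 1.

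Many interferon-stimulated genes were high, while few interferon genes were detected. Of 49 such genes in the table (50 listed), all passed the filter, led by Cxcl10, Ifitm3, Rsad2 (viperin, 7704.6 per kb), Ifit1 (5733.7), Cmpk2 (5471.5), Irf1 (3624.4) and Ifit2 (3539.3). The only interferon gene that passed was Ifnb1, with 129, 99 and 75 normalised reads in replicates 1 to 3 of set 1 and 262, 79 and 86 in those of set 2. Set 2 replicate 1 stood well above the others. The mean of Ifnb1 was 158 per kb, far below the leading interferon-stimulated genes. Some members of that list nevertheless lay below it, such as Oas2 (147.8 per kb), Iigp1 (104.8) and Ifi44 (41.8). Of 21 interferon genes listed 15 were at 0 in all 6 samples, Ifng and 10 of 14 genes of the alpha family among them, and Ifnz, with 1 to 8, was the highest of the rest.

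The promoters of the interferon-stimulated genes Cxcl10 and Rsad2 and of the NF-kB gene Nfkbia are printed because a motif of their class falls within them. Each is the stretch of 250 bases before the RefSeq start (GRCm38.p6), read 5′ to 3′ on the gene's strand, with matches in capitals. The motifs searched on both strands were GAAA, any 2 bases and GAAA for the interferon-stimulated response element, GGG, any 2 bases and TTTCC for NF-kB, and TATAAA for the TATA box.
Cxcl10 (chr5:92348890-92349139, minus): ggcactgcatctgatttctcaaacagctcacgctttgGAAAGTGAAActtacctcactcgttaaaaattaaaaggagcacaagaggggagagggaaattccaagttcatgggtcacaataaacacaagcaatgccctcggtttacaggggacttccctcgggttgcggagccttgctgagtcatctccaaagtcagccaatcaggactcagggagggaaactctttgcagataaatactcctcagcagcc
Rsad2 (chr12:26456453-26456702, minus): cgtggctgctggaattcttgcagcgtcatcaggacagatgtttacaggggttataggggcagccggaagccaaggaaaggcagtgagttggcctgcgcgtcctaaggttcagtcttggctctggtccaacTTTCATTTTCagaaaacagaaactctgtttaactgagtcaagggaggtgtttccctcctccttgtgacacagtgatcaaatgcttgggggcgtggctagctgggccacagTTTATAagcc
Nfkbia (chr12:55492648-55492897, minus): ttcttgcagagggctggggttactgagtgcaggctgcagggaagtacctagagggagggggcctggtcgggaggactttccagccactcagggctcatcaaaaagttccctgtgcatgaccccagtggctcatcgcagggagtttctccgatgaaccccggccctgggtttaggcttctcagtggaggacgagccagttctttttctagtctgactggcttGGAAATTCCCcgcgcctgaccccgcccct
Cxcl10 held GAAAGTGAAA on its own strand at position -213, counted to the first base of the match. Rsad2 held TTTCATTTTC, the same motif on the opposite strand, at -120. It also held TTTATA, the TATA letters on the opposite strand, at -10, and whether this acts as a TATA box was not tested. Nfkbia held GGAAATTCCC, the NF-kB letters on the opposite strand, at -29. Promoters were found for 38 of the 50 interferon-stimulated genes listed, and 20 of them, or 52.6%, held the response element in some promoter, against 3.46% of the 27025 genes with a promoter of this length. The NF-kB letters were in 4 of 12 NF-kB genes and in 4 of 17 chemokine genes, against 1.65% of all genes, and the TATA letters in 8 of 17 chemokine genes against 14.3%. A match of letters is a description and not a mapped site, and these windows of 250 bases leave other elements unseen. The fixed letters also miss variants of a motif inside the windows. The lack of a marked NF-kB match in the Cxcl10 promoter therefore does not mean that it holds no such site.

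Most genes of the table were not detected in these cells. Of 45070 genes, 23263 (51.6%) were at 0 in all 6 samples, and 14220 of these were at 0 in all 180 samples. The other 9043 were seen in some inhibitor sample, but only 3 of them with a value of 10 or more anywhere. Protein-coding genes were absent least often, 7422 of 21901 (33.9%), against 9854 of 13966 non-coding RNA genes (70.6%) and 3323 of 6301 pseudogenes (52.7%). Absent genes had shorter cDNAs, with a median of 933 bases against 2818 for those with a mean of at least 10. Small RNAs, which a poly(A)-primed library does not capture, were absent in 1240 of 1330 snoRNA genes (93.2%) and in 96.6% of snRNA genes.

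Several sensory and tissue-restricted families were absent wholly or almost so, and the keratins and Hox genes less completely. Of 1146 olfactory receptor genes (Olfr) 1117 were at 0 in all samples, as were 257 of 260 and 141 of 147 vomeronasal receptor genes of types 1 and 2 and 35 of 35 bitter taste receptors. Of the Olfr genes only Olfr1033 passed the filter, with 39, 32, 16, 41, 24 and 17 normalised reads in replicates 1 to 3 of sets 1 and 2. The prolactin family (25 genes), the secretoglobins (53) and the major urinary proteins (22) were at 0 to the last gene. Among the keratins 48 of 55 were absent and only Krt10 passed, at 13 to 27 normalised reads, and of 43 Hox genes 32 were absent and none passed. By contrast none of the 12 Toll-like receptor genes was at 0 in all samples and 10 passed the filter. At these depths a value of 0 means that a transcript was not detected, and it does not exclude a low level.

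**Figure D3:**
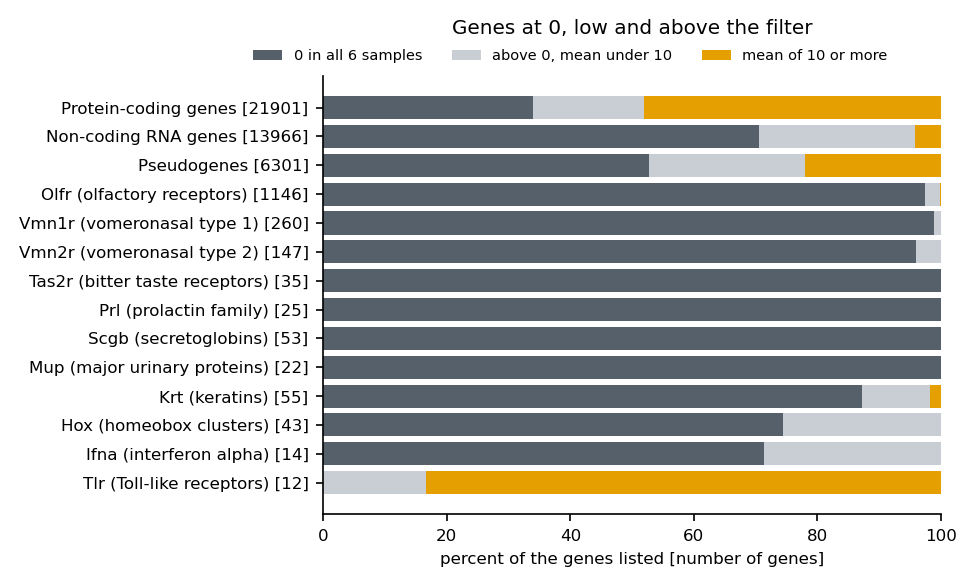
Percent of the genes of each type or family (number of genes in square brackets) that were at 0 in all 6 DMSO samples, above 0 with a mean under 10, or at a mean of 10 or more. Bitter taste receptors, prolactins, secretoglobins and major urinary proteins are filled to 100% with genes at 0, and no Toll-like receptor is.

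Genes that varied between the replicate numbers were then sought, with the 2 sets as the replicates of each number. limma's F test over replicates 1, 2 and 3 found 53 of 12505 genes, 0.424%, at an adjusted p under 0.05, and 4428 genes had an unadjusted p under 0.05. In the pairwise contrasts 260 genes (2.08%) were lower and 70 (0.56%) higher in replicate 3 than in replicate 1, 47 (0.376%) were lower and 0 higher in replicate 3 than in replicate 2, and 0 differed between replicates 2 and 1, where 3915 had an unadjusted p under 0.05. With the DMSO set as a term in the fit all 4 counts were 0, and the cause was not tested. The smallest adjusted p-value was 0.0415 in the F test, 0.0241 for replicate 3 against 1 and 0.0123 for replicate 3 against 2, and the calls are given below with the values of each sample and with the same numbers in the inhibitor samples, which no fit here used. Without any test, 4239 genes (33.9%) had the same highest and the same lowest replicate number in both sets, and 358 (2.86%) did so with a range of at least 1 on the log2 scale in each.

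Y-linked genes were lower in replicate 3. Ddx3y, an RNA helicase on the Y chromosome, had 472 and 540 normalised reads in replicate 1 of sets 1 and 2, 457 and 269 in replicate 2, and 57 and 67 in replicate 3. The replicate 3 samples lay below all others, with a log2 difference of -3.01 ± 0.26 (SE, n = 2 per number) from replicate 1 (limma, adjusted p = 0.0241) and -2.49 from replicate 2 (adjusted p = 0.0387). Eif2s3y, a subunit of a translation initiation factor, had 367, 339 and 88 in set 1 and 432, 253 and 77 in set 2, a log2 difference of -2.26 ± 0.2 between replicates 3 and 1 (adjusted p = 0.0241). The histone demethylase Kdm5d fell by 2.61 (adjusted p = 0.036), from 51 and 64 to 6 and 12, and its relative Uty, with 69 and 102 against 8 and 25, missed the threshold (adjusted p = 0.0504). Xist, the RNA that silences an X chromosome, had no DMSO sample above 2. Of the 9 genes tested on the Y chromosome the median log2 difference between replicates 3 and 1 was -1.47, while the median of the autosomes and the X chromosome ran from -0.24 to 0.02 and that of all genes was -0.09.

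In the inhibitor samples the median of the 9 Y chromosome genes was smaller in size, at -0.71, but for 4 of them replicate 3 stayed the lowest number. In each of the 58 inhibitor groups replicate 3 was the lowest of the 3 numbers for Ddx3y, Eif2s3y, Kdm5d and Uty. With the DMSO sets, this held for these 4 genes in all 60 groups. The highest number varied, and replicate 1 was the highest in 27 of the 58 groups for Ddx3y and in 31 for Eif2s3y. The median difference between replicates 3 and 1 there was -2.48 for Ddx3y and -2.13 for Eif2s3y. Besides these 4, only Gm42048, a predicted gene on chromosome 8, was lowest in replicate 3 in all 60 groups. Its DMSO values were 45, 131 and 13 in set 1 and 64, 92 and 15 in set 2.

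**Figure D4:**
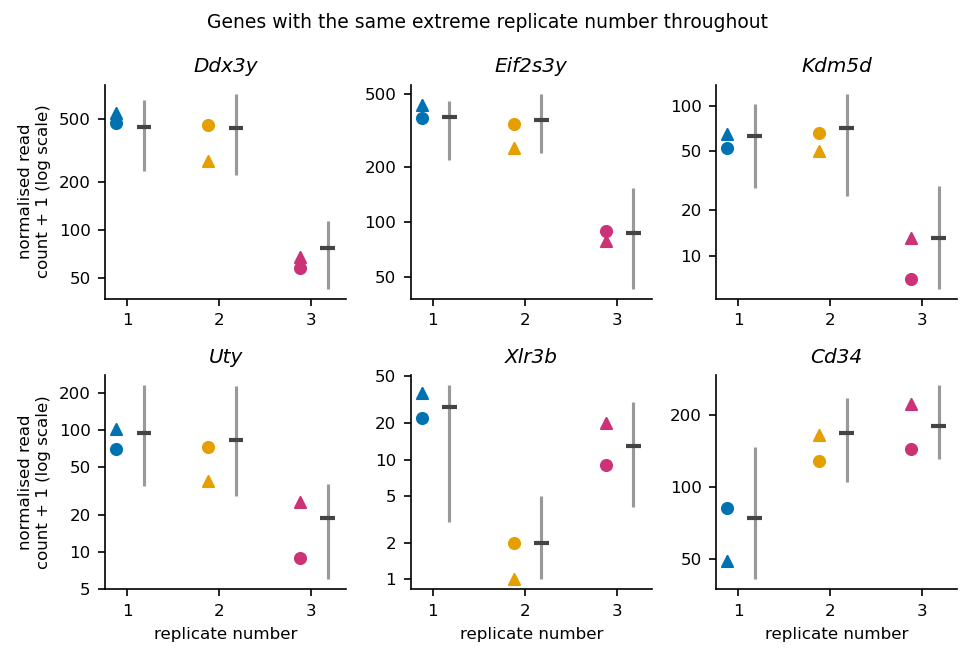
Normalised read count plus 1, on log axes, by replicate number for 6 genes; coloured circles and triangles are DMSO sets 1 and 2, and the grey line runs from the lowest to the highest of the 58 inhibitor samples of that number with their median as a dark bar. Ddx3y, Eif2s3y, Kdm5d and Uty are lowest in replicate 3, Xlr3b in replicate 2 and Cd34 in replicate 1.

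Replicates 1 and 2 had marks of their own. Xlr3b, an X-linked gene of the lymphocyte-regulated family, had 21 and 35 normalised reads in replicate 1, 1 and 0 in replicate 2, and 8 and 19 in replicate 3. It was lowest in replicate 2 in all 60 groups and was the only such gene, but the DMSO samples alone did not pass the F test (limma, adjusted p = 0.0515). A set of 45 genes was lowest in replicate 1 in all 60 groups, led by Cd34, a marker of progenitors, with 81, 128 and 143 in set 1 and 48, 164 and 222 in set 2. Only 6 genes were highest in replicate 1 in all groups, namely Tm4sf1, Cpne8, Pltp, Fosl2, Prcp and Ctsb. The same number were highest in replicate 2 in all groups, Ndc80 and Cnbd2 among them, and 0 were highest in replicate 3.

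The set that was lowest in replicate 1 held Mcm2, Mcm5 and Mcm6, subunits of the replicative helicase, Ccnd1 and Cdk4, which drive entry into S phase, the nuclear transport genes Ran, Ranbp1 and Rcc1, and the chaperonin Hspd1. Mcm6 had 1888, 2624 and 3452 normalised reads in replicates 1 to 3 of set 1 and 1454, 3914 and 3488 in those of set 2, a log2 difference of 1.07 ± 0.21 between replicates 3 and 1 (limma, adjusted p = 0.0464). Mcm2, at 399, 639, 736, 375, 718 and 806 in the same order, rose by 0.99 ± 0.14 (adjusted p = 0.0362). Of 30 cell cycle genes 6 rose between replicates 1 and 3, beside 0.56% of all genes tested, and 0 fell. Their median difference was 0.37 beside -0.09 over all genes, and 25 were above 0, beside 5429 of 12505 genes. Within set 1 alone 21, and within set 2 alone 24, of the 30 were higher in replicate 3, beside 5254 and 5762 of all genes. In the inhibitor samples 10 of them were lowest in replicate 1 in at least 50 of 58 groups, as were 811 of the 12505 genes. Mki67 went the other way, from 2144 and 2319 in replicate 1 to 958 and 1588 in replicate 3.

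Part of the interferon-stimulated genes fell between replicates 1 and 3. Rsad2 had 33559, 34143 and 18749 normalised reads in replicates 1 to 3 of set 1 and 36278, 31918 and 20324 in those of set 2, with replicate 3 below the other numbers in both, and a log2 difference of -0.84 ± 0.12 from replicate 1 (limma, adjusted p = 0.036). Ifit2, which binds viral RNA, had 17598, 17623, 6662, 23461, 13694 and 8771 in the same order, a difference of -1.41 ± 0.2 (adjusted p = 0.036). Of the 49 genes 19 fell between replicates 1 and 3, beside 2.08% of all genes tested, and 0 rose, and the median difference was -1 beside -0.09 over all genes. All 49 were below 0 in this contrast, beside 7068 of 12505 genes. Within set 1 alone 49, and within set 2 alone 47, were lower in replicate 3, beside 7085 and 6568 of all genes. Replicate 3 was the lowest number in both sets for 38 of the 49, beside 17.8% of all genes tested. Against replicate 2, 2 of the 49 were called lower in replicate 3, beside 0.376% of all genes, and 9 lay above replicate 2 within set 2. Irf1 was among those that hardly moved, at -0.04 ± 0.12.

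In the inhibitor samples this difference was smaller. The median over the 49 genes of the difference between replicates 3 and 1 was -0.43 beside 0.04 over all genes, that between replicates 3 and 2 was -0.04, and 8 of the 49 were lower in replicate 3 than in replicate 1 in at least 50 of 58 groups, beside 718 of the 12505 genes tested. Rsad2 was lower in 40 groups and Ifit2 in 51. Their upstream gene Ifnb1 differed by -1.19 ± 0.33 in the DMSO samples (adjusted p = 0.0683). Genes of other response lists behaved alike in part. Beside the 2.08% of all genes that fell, 4 of 16 cytokine genes fell and 0 rose, Il10 by 1.26 (adjusted p = 0.0464) and Il6 by 0.98 (adjusted p = 0.0388) among them, and of 10 CXC chemokines 2 fell, Cxcl9 by 1.55 (adjusted p = 0.0421) and Cxcl11 by 1.26 (adjusted p = 0.036). Of 22 immediate-early genes 4 fell between replicates 1 and 3 and 0 rose, beside 2.08% and 0.56% of all genes. Against replicate 2, 2 were lower in replicate 3, beside 0.376% of all genes, and Dusp1 was among both groups. Of the 12 CC chemokines and of the 15 NF-kB genes 0 passed the test in either direction. The CC chemokines nevertheless had a median of -0.64, with 11 of 12 below 0, and the NF-kB genes one of -0.07, with 10 of 15 below 0. For the CXC chemokines the median was -0.24, with 6 of 10 below 0, and it was 0.01 within set 1 and -0.47 within set 2. Tnf differed by -0.01 ± 0.15.

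**Figure D5:**
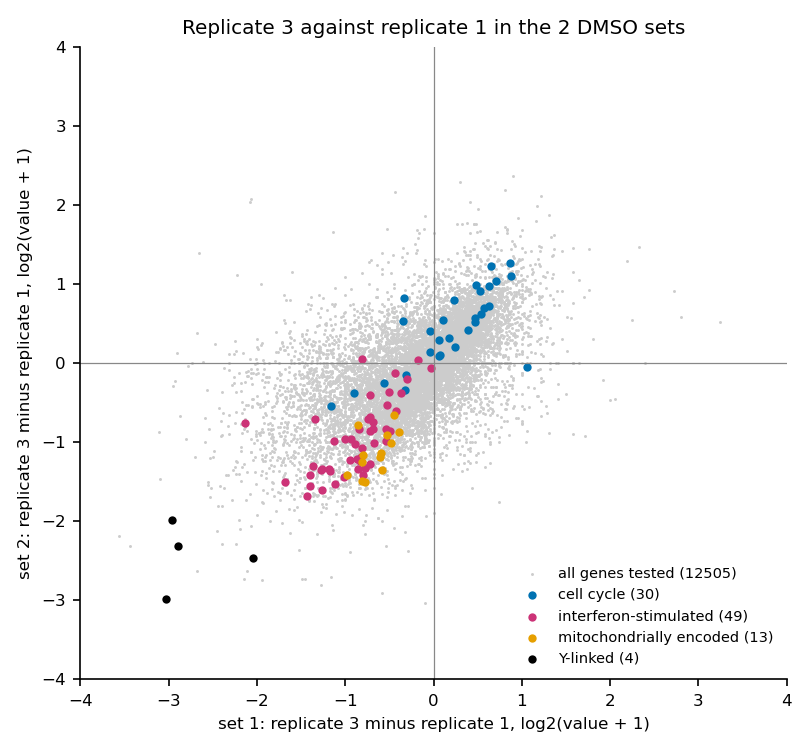
Difference between replicates 3 and 1 on the log2(value + 1) scale in DMSO set 1 (horizontal axis) and DMSO set 2 (vertical axis) for the 12505 genes tested, with 4 gene lists in colour and the number of their genes tested in brackets. The 4 Y-linked genes lie far to the lower left, all 49 interferon-stimulated genes lie left of 0 and 47 of them also below 0, and most of the 30 cell cycle genes lie in the upper right.

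Measures of library composition differed between the samples, and some of them followed the replicate numbers in both sets. Mitochondrial genes took 1.34% and 1.94% of the normalised reads in replicate 1 of sets 1 and 2, 0.871% and 0.759% in replicate 2, and 0.916% and 1.06% in replicate 3. All 13 mitochondrially encoded protein genes were lower in replicate 3 than in replicate 1 in both sets, beside 7085 and 6568 of 12505 genes within sets 1 and 2. Their median difference was -0.9 beside -0.09 over all genes, and 0 of them passed the test, beside 2.08% of all genes called lower. The Spearman correlation across genes between a sample's deviation from the mean and cDNA length was 0.04, 0.33 and -0.43 in replicates 1 to 3 of set 1 and 0, 0.29 and -0.02 in those of set 2, so that set 1 replicate 3 had lower values of long genes. The genes that fell between replicates 1 and 3 had a median cDNA of 3264.5 bases and those that rose 2346, against 2818 over all genes and 2638 for the interferon-stimulated genes. The part of these measures in the differences above was not tested. Of the macrophage identity genes, 14 of 16 were below 0 in the same contrast with a median of -0.63, beside 7068 of 12505 genes and -0.09, and 1 passed the test, beside 2.08% of all genes. Among markers of other cell types, the medians were -1.28 for the 5 T cell markers tested, of which 4 were below 0, and -0.02 for 3 dendritic cell markers. For 8 neutrophil markers, of which 6 were below 0, the median was -0.5, with -0.25 in set 1 and -0.84 in set 2. For 2 endothelial markers, both below 0, it was -1.01, with -1.6 in set 1 and -0.42 in set 2. The 4 fibroblast markers tested had a median of 0.33 in this contrast. Between replicates 2 and 1 their median difference was 1.64, all above 0, with 0.93 in set 1 and 2.11 in set 2. Of these lists of other cell types 0 genes passed the test.

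Among genes that passed the F test and kept the same highest and lowest number with a range of at least 1 on the log2 scale in each set, 20 had replicate 1 highest and replicate 3 lowest, and 12 had replicate 2 highest and replicate 3 lowest. These 32 genes are 0.256% of those tested, and no gene with another order met the rule. In the first order, besides Ddx3y and Eif2s3y, stood the pseudogene Gm8989, Arglu1, which acts in splicing, Pim1, a kinase, Pam, which amidates peptides, the receptor Notch2, and Wtap, a subunit of the complex that methylates adenosines in RNA. Pim1 had 1580, 924 and 287 normalised reads in replicates 1 to 3 of set 1 and 1762, 673 and 404 in those of set 2, a log2 difference of -2.29 ± 0.22 between replicates 3 and 1 (limma, adjusted p = 0.0241). Notch2 had 1198, 932, 335, 1443, 890 and 477 in the same order. The remainder of this order included Apoe, the cholesterol transporter Abca1, the ubiquitin ligase Peli1, Zbp1, Cxcl11 and Ifi47. Pim1 was lowest in replicate 3 in 47 of 58 inhibitor groups, Notch2 in 46 and Arglu1 in 45. Gm8989 was so in 26 groups, Ifi47 in 27 and Cxcl11 in 20.

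In the second order stood Gm42048, Erdr1:1, Rsrp1, Nenf, Desi2, the Wnt pathway receptor Kremen1, Helz2 and Gas6, a ligand of the receptors that clear dying cells, followed by Gm40514, the membrane protease Mmp14, Jun and Il27. Rsrp1 had 1353, 2713 and 805 normalised reads in replicates 1 to 3 of set 1 and 1514, 3182 and 722 in those of set 2, a log2 difference of -1.94 between replicates 3 and 2 (limma, adjusted p = 0.0123). Jun, a subunit of AP-1, had 1968, 2744, 1205, 1882, 3141 and 1187 in the same order, a difference of -1.29 (adjusted p = 0.0387). The inhibitor samples did not repeat these 2 genes, since replicate 3 was the lowest for Rsrp1 in 12 of 58 groups and for Jun in 20, and the median difference between replicates 3 and 2 there was 0.11 for Rsrp1 and -0.05 for Jun. Erdr1:1, Il27 and Helz2 had replicate 3 lowest in 9, 18 and 23 groups and Gm40514 in 29. For Kremen1, Gas6 and Nenf it was the lowest in 32, 33 and 34 groups, and for Desi2 and Mmp14 in 36. Replicate 2 was the highest in 57 groups for Gm40514 and in 47 for Erdr1:1, against 20 for Rsrp1 and 24 for Jun.

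Over all genes that fell between replicates 1 and 3 in DMSO, 257 of 260 were lower in replicate 3 in more than 29 of the 58 inhibitor groups and 136 in at least 50, which was 52.3% of them beside 5.74% of all genes tested. Of the 70 that rose, 62, or 88.6%, were higher in at least 50 groups, beside 16.1% of all genes. For replicate 3 against replicate 2, 8 of the 47 genes were lower in at least 50 groups, or 17%, beside 0.536% of all genes. The labels do not state whether the inhibitor and DMSO samples of a number were prepared together.

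The 2 DMSO sets did not differ at the threshold. limma called 0 of 12505 genes higher and 0 lower in set 2, and 37 genes, or 0.296%, had an unadjusted p under 0.05. This fit held no term for the replicate number, so differences between the numbers counted as spread within a set. Its 0 calls therefore do not show that the sets were alike. With replicate numbers as a block the adjusted count stayed at 0 and 139 genes had an unadjusted p under 0.05. No list had a median difference between the sets beyond 0.42 on the log2 scale, the value of 2 endothelial genes tested. For the 49 interferon-stimulated genes it was 0.11 beside 0.02 over all genes, and 45 were above 0, beside 7033 of 12505 genes. The 13 mitochondrially encoded protein genes were all above 0, with a median of 0.11.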

How the data were processed

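RNA was measured by SMART-seq2 with oligo(dT) priming and reads of 51 bases. The authors mapped reads to mm10 with TopHat2 2.1.1, keeping at most 1 hit per read, removed blacklisted regions with bedtools 2.29.2, counted reads on RefSeq exons in R, scaled samples by invariant genes and deposited the values as whole numbers, treated here as a score in arbitrary units (normalised read counts) and not as counts, so no count model was used. The table also gives cDNA lengths. limma 3.58.1 in R 4.3.3 tested log2(value + 1) with a variance trend over genes with a mean of at least 10 in the 6 DMSO samples, with Benjamini-Hochberg adjustment and a threshold of 0.05, and the code was tested on simulated data. Tables were made with Python 3.11.15. The methods state 3 independent biological replicates but nothing says that the 2 sets came from separate cultures, so p-values measure only the spread between these samples. Replicate numbers come from the labels, and same-numbered samples of the 2 sets deviated together (Pearson r across genes 0.57, 0.36 and 0.55). They were taken as the 2 replicates of each number. The main fits were not paired, since they held no set term for the numbers and no replicate block for the sets. Gene lists, members and rules were chosen with earlier results of these data known. The text names the 30 genes highest per kb, the 10 highest before division, list members, and up to 8 genes per order of replicate numbers that passed the F test with a range of at least 1 in each set; the other genes of those orders, and genes extreme in all 60 groups, were named after their values were seen. Alternatives were other pseudocounts, filters, scaling, no trend, a set term and leaving out each sample. A few genes are not reported here.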

Additional observations from a re-analysis of the deposited data

How the results depend on the processing

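The counts of genes past the threshold depended on the settings, and the cause was not tested. The F test over the replicate numbers called 53 genes, but 0 with the DMSO set as a term (the paired fit, with replicate numbers as the groups), 0 with a filter at a mean of 50, 0 with no filter, 0 without the variance trend and 1598 after scaling again by the median of ratios. In replicate 3 minus replicate 1 there were 330 calls, and in the same order 0, 561, 0, 0 and 1293, and 635 with a pseudocount of 10. In replicate 3 minus replicate 2 there were 47, and 0, 14, 0, 0 and 306. In replicate 2 minus replicate 1 there were 0, and 1063 after scaling again. Leaving out each sample in turn gave 0 to 1783 calls in the F test, 0 to 1258 for replicate 3 against 1, 0 to 1026 for replicate 3 against 2 and 0 to 2366 for replicate 2 against 1. The F test lost all calls without set 1 replicate 1, set 1 replicate 3, set 2 replicate 1 or set 2 replicate 2, replicate 3 against 1 without any one of the first 3 of these samples and replicate 3 against 2 without any sample other than set 2 replicate 3, and the highest counts came without set 1 replicate 2 in the first and the last of these and without set 2 replicate 3 in the other pair. None of the 83 gene differences recomputed, those that had passed a test, changed direction in these fits, and differences near 0 were not recomputed. The set comparison stayed at 0 calls in every alternative, the replicate block included. Of the 30 leading genes 21 to 30 were kept, and the count of genes absent ran from 23263 to 32565. The counts of list members within each set alone were chosen after seeing the data. The counting error of low values was not computed, and the scale of set 2 replicate 2 was not found.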
